A study of Mus musculus with 11 samples.

Results

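Upstream of Optn on mouse chromosome 2, wild-type retina made abundant RNA from a stretch of under 10 kb that holds no annotated gene, and retina lacking Nrl held almost none of it. The features described here are all rows of the deposited table of non-coding features on chromosome 2 that overlap the 150 kb from position 5000000 (mm10), on either strand. They number 6 of the 36097 in the table. Among them MSTRG.46971 and MSTRG.46973 were chosen because they had the largest falls in knockout retina, so their difference between the genotypes is given as a description with no test. The other 4 were chosen by position.

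Retina of mice at postnatal day 21 was the source of the RNA, which was depleted of polyadenylated transcripts and sequenced in 5 wild-type libraries and 6 libraries of Nrl knock-out mice. The sources used here give neither the knockout allele nor the strain nor any pooling of animals. Nothing says that the numbered replicates came from separate animals, so a p-value reflects only how these libraries vary, and that variation may be technical. The listed features held 3238184 to 4876429 reads per library. At the feature MSTRG.28375, which lies over exons of Nrl on the opposite strand, the wild-type libraries held 33.3 to 55.5 normalised counts, and the knockout libraries held 0 except for knockout 5, with 0.758.

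Nrl is a transcription factor of the Maf family needed for photoreceptor precursors to become rods, and it acts with the homeobox factor Crx at many rod genes. Without Nrl the photoreceptors that would be rods take on features of cones. Active enhancers and promoters are often transcribed on both strands into RNA that carries no poly(A) tail, which is the kind of RNA this library preparation keeps. Optn encodes optineurin, an adaptor protein that binds ubiquitin and links cargo to the autophagy machinery, and mutations in the human gene are known in glaucoma and amyotrophic lateral sclerosis.

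The promoter of Optn is shown because 3 of the features lie upstream of it. It is the 250 bases before the RefSeq start of Optn (GRCm38, the mm10 build, chr2:5064118-5064367, minus strand), with capitals marking TGCTGA, the core of the Maf recognition element bound by Nrl, and TAATCC, a site bound by Crx.
Optn: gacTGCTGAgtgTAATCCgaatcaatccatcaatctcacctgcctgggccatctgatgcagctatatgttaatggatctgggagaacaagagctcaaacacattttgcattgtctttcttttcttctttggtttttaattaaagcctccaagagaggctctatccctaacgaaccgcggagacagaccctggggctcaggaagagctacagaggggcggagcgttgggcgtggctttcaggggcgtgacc

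Counting from 1 at the 5′ end of this stretch, TGCTGA took up positions 4 to 9 and TAATCC positions 13 to 18, so that 247 and 238 bases separate their first bases from the start site. Searched on both strands, TGCTGA was present in 16.1% of 32851 RefSeq promoters of the same length, TAATCC in 6.25% and both in 0.962%. The motifs share no bases in the Optn promoter. The full Maf recognition element was not found there. The promoters of the nearby genes Mcm10, Ccdc3, Ucma and Camk1d held none of these 3 motifs in the same window. A match of letters is a description of the sequence and not evidence of binding. The sequence of the features themselves was not analysed here.

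The features formed 2 clusters on either side of the Optn gene, which runs from 5020642 to 5064051 on the minus strand in GENCODE M21. Upstream of the Optn start lay MSTRG.46971 (5075108 to 5083538, minus strand, 8431 bp), MSTRG.46973 (5083595 to 5083845, minus strand, 251 bp) and MSTRG.46974 (5083595 to 5084989, plus strand, 1395 bp). Together they spanned 9882 bp. Beyond the 3′ end of Optn, and before the start of Mcm10, lay the short minus-strand features MSTRG.46963 (5014023 to 5014451), MSTRG.46964 (5015679 to 5016050) and MSTRG.46965 (5017044 to 5017624). Mcm10 encodes a DNA replication factor and runs on the minus strand from 4989714 to 5012791. All 6 features were intergenic, with no GENCODE M21 gene and no RefSeq gene over any of them on either strand. No listed feature overlapped Optn itself.

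**Figure D1:**
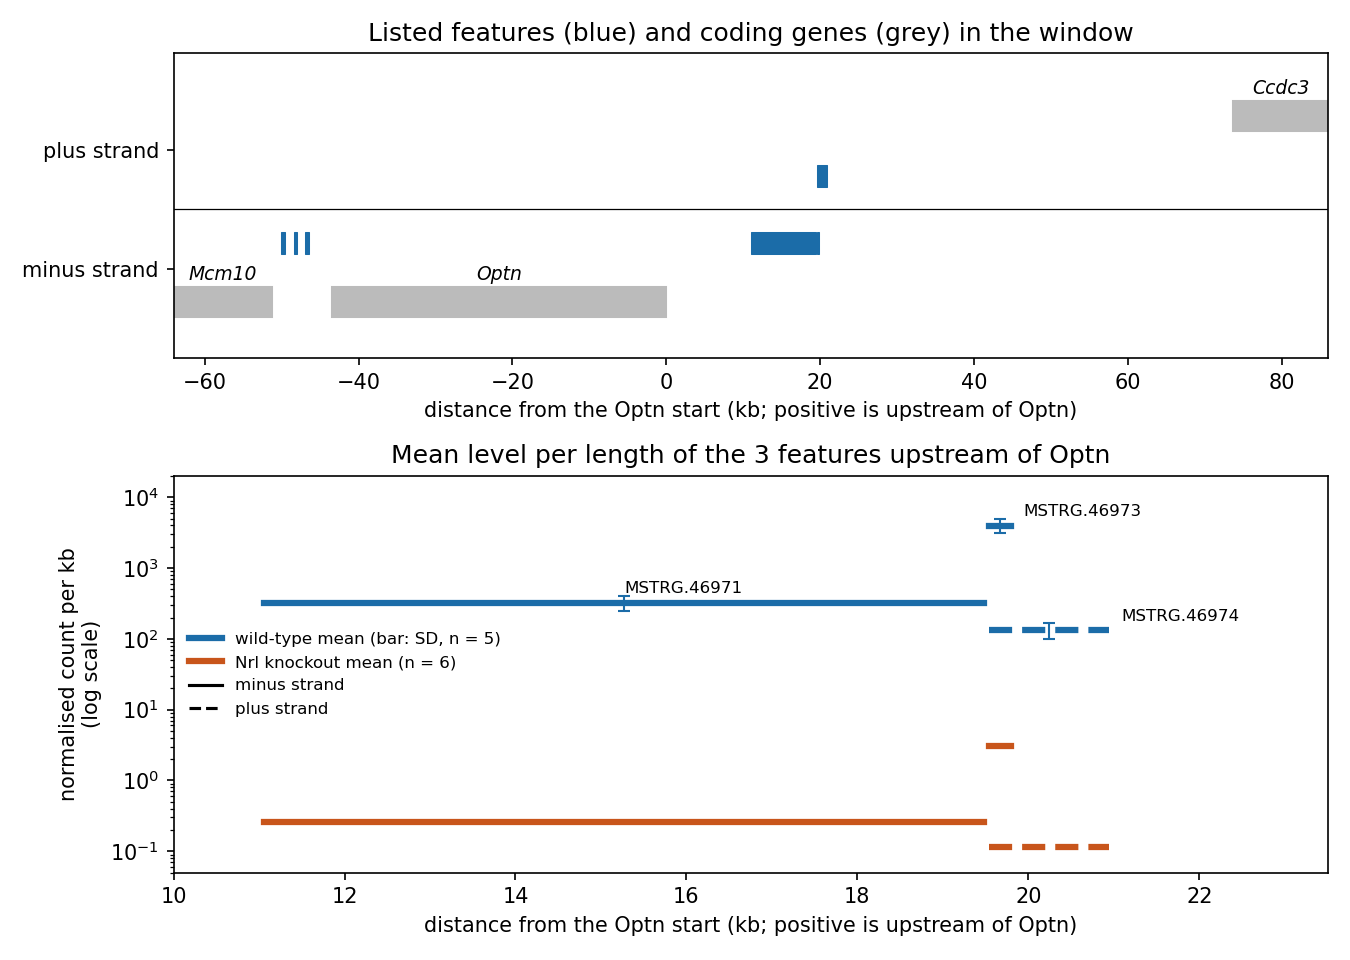
Upper panel: listed features (blue) and coding genes (grey) by strand, as distance in kb from the Optn start. Lower panel: mean normalised count per kb on a log axis for the 3 features upstream of Optn, with the SD of 5 wild-type libraries as a bar; the short MSTRG.46973 has the highest level per length, 3995 in wild-type.

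The upstream cluster has its edges close together. The near end of MSTRG.46971 was 11057 bp from the Optn start, and only 56 bases separated its far end from MSTRG.46973. On the opposite strand MSTRG.46974 shared its left edge with MSTRG.46973 and covered all 251 bases of it, which is 18.0% of the length of MSTRG.46974. By strand, that edge is the start of MSTRG.46974 and the 3′ end of MSTRG.46973. The table holds 820 pairs of features that overlap on opposite strands, and 5 of these pairs share a left edge. From its start at 5083595, MSTRG.46974 is directed away from Optn, whereas both minus-strand features are directed toward it. The next coding gene in that direction, Ccdc3, starts 52787 bp past the end of MSTRG.46974 in GENCODE M21. RefSeq lists the long non-coding RNA gene Gm39755 (5101016 to 5103438) in between. Reads were sequenced with strand, but the sources used here do not say whether the counting used strand. MSTRG.46974 covers all of MSTRG.46973 but held 895 wild-type reads against its 4818. Reads over the shared bases were therefore not simply counted for both features. How they were divided was not tested.

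MSTRG.46971 was among the abundant features of wild-type retina. It held 3747, 2849, 2580, 2176 and 2318 normalised counts in wild-type 1 to 5 (normalised counts are reads divided by a library's size factor). In knockout 1 to 6 it held 0, 2.02, 3.32, 3.84, 3.03 and 0.976. All wild-type libraries lay far above all knockout libraries, and wild-type 1 was the highest. The means were 2734 ± 622 (SD, n = 5) and 2.198 ± 1.48 (SD, n = 6), a difference of -9.89 in log2(normalised count + 1). As reads these were 13088 in wild-type and 15 in knockout, so the rate was 1166 times higher in wild-type. No interval is given, since the feature was chosen for this fall. In bulk retina, fewer cells of a type and less RNA per cell cannot be told apart. The feature ranked 125 by wild-type mean among the 36097 features and 32846 by knockout mean.

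MSTRG.46973 was the most concentrated of the 6 features. Its values were 1339, 1082, 953, 918 and 722 normalised counts in wild-type 1 to 5. Each knockout library held a single read (0.758 to 1.04 normalised counts), except knockout 4, which held none. The groups again stood far apart, with means of 1003 ± 228 (SD, n = 5) and 0.769 ± 0.392 (SD, n = 6), a difference of -9.16 on the log2 scale. The counts of 4818 reads and 5 reads gave a rate ratio of 1288, also given without an interval. This feature is on the minus strand, like Optn.

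MSTRG.46974, the plus-strand feature, was lower but followed the same pattern. It held 241, 224, 159, 185 and 120.04 normalised counts in wild-type 1 to 5. In knockout it held 1 read, in knockout 4 (0.960 normalised counts), and 0 in the other 5 libraries, where a count of 0 allows up to 3 reads, or 2.28 to 3.12 normalised counts. The means were 186 ± 49.0 (SD, n = 5) and 0.160 ± 0.392 (SD, n = 6). With 895 reads against 1, the rate ratio was 1196. Because it shares its first bases with MSTRG.46973, its difference is not separate evidence and is described without a p-value or an interval.

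**Figure D2:**
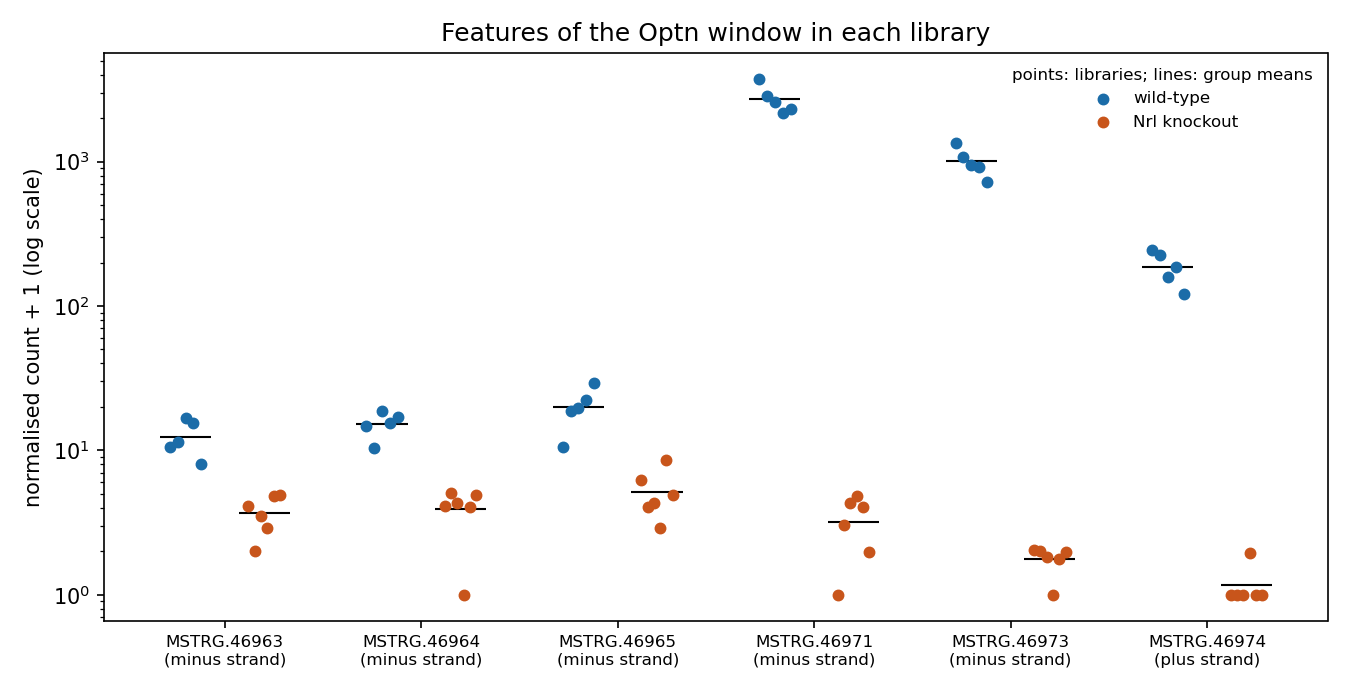
Normalised count + 1 (log axis) of the 6 features in each of 5 wild-type (blue) and 6 Nrl knockout (orange) libraries, with group means as lines. The wild-type and knockout points do not overlap for any of the 6. Every knockout library lay below every wild-type library in 9.13% of all tested features. The upstream cluster (right) is separated by far more than the cluster between Optn and Mcm10 (left).

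Knockout libraries held from 1 to 5 reads in all 3 upstream features together, and wild-type libraries from 3133 to 4416, which was 0.0818% to 0.122% of the reads in all listed features. In the authors' deposited table the log2 fold changes were -10.23 (SE 0.42) for MSTRG.46971, -10.36 (SE 0.67) for MSTRG.46973 and -9.61 (SE 0.86) for MSTRG.46974. By that column of the authors' deposited table MSTRG.46973 ranked 1, MSTRG.46971 ranked 2 and MSTRG.46974 ranked 7 among the most negative. With so few reads in knockout, the fitted log2 values depend on the constant added before taking logs, whereas the read counts do not.

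Per length the features differed greatly within wild-type retina, a comparison that does not use the knockout. Length is the genomic span from first to last base, and whether reads covered all of it was not tested. MSTRG.46973 held 3995 ± 907 normalised counts per kb (SD, n = 5), MSTRG.46971 324 ± 73.8 and MSTRG.46974 133 ± 35.1. By level per length in wild-type they ranked 39, 280 and 905 in the table, where the median was 26.9 and the 99th percentile 266. The ratio of MSTRG.46973 to MSTRG.46971 per length was 12 in wild-type 1 and 12.8, 12.4, 14.2 and 10.5 in wild-type 2 to 5. All 5 libraries thus showed the same order, with a mean ratio of 12.4 ± 1.34 (SD, n = 5). MSTRG.46973 took 23.8% to 29.7% of the counts of the 2 minus-strand features. The ratio of MSTRG.46974 to MSTRG.46973 in normalised counts was 0.180, 0.207, 0.167, 0.201 and 0.166, a mean of 0.184 ± 0.0191 (SD, n = 5). These ratios varied less between wild-type libraries than the levels, which differed by up to 2.01-fold.

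Wild-type 1 had the highest normalised count of all 3 upstream features. It is also the library with the fewest reads in listed features, 3238184, and 1 of its reads is worth 1.37 normalised counts, against 0.928 to 1.01 in the other wild-type libraries. When every library was scaled to the same total over the listed features, wild-type 1 and wild-type 2 held 3266 and 3248 for MSTRG.46971, and wild-type 2 was the higher for MSTRG.46973 (1234 against 1167) and MSTRG.46974 (255 against 210.4). Wild-type 5 was the lowest for MSTRG.46973 and MSTRG.46974 under either scaling. The part of the library in this spread was not tested.

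**Figure D3:**
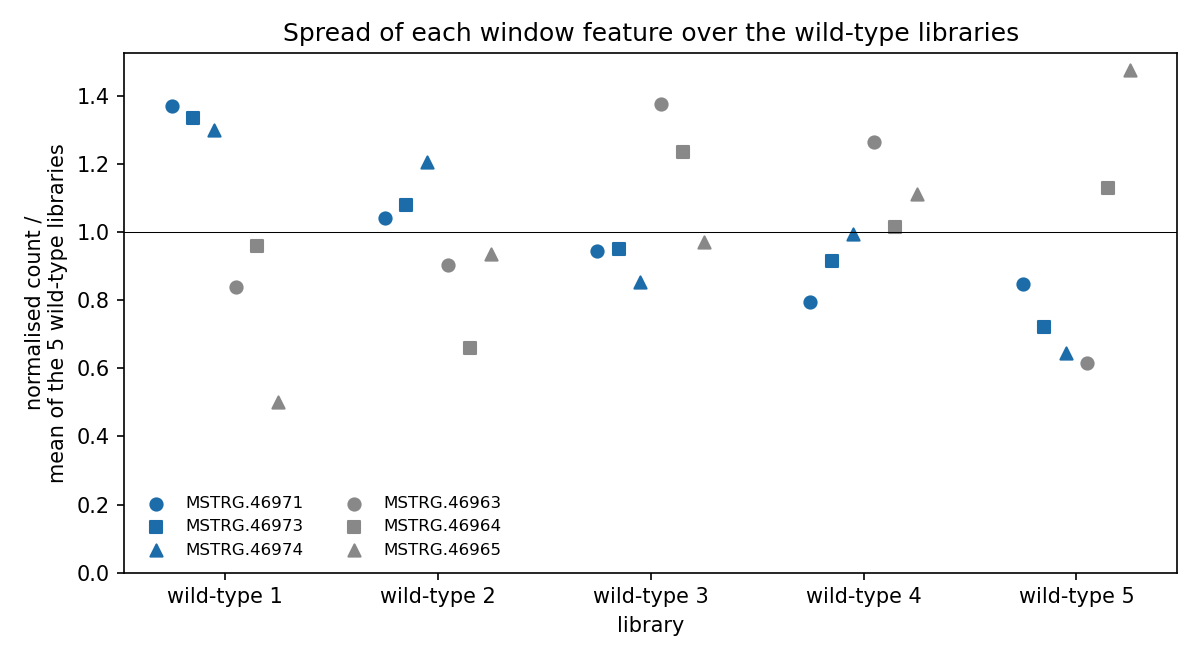
Normalised count of each window feature divided by its mean over the 5 wild-type libraries, by library. The 3 upstream features (blue) were above 1 in wild-type 1 and wild-type 2, whereas the 3 features between Optn and Mcm10 (grey) were below 1 there.

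Between Optn and Mcm10, the 3 short features were low in wild-type and lower in knockout. Their near edges lie 1232, 2888 and 4253 bp upstream of the Mcm10 start, on the strand of both genes, and their far edges 6191, 4592 and 3018 bp past the 3′ end of Optn. In wild-type 1 to 5 MSTRG.46963 held 9.60, 10.4, 15.8, 14.5 and 7.06 normalised counts, and in knockout 1.01 to 3.91 with 18 reads in all. MSTRG.46964 held 13.7, 9.41, 17.6, 14.5 and 16.1 in wild-type and 0 to 4.04 in knockout, where knockout 4 had the 0. MSTRG.46965 held 9.60, 17.9, 18.6, 21.3 and 28.2 in wild-type and 1.92 to 7.58 in knockout. For each of the 3, all knockout libraries lay below all wild-type libraries, which held for 9.13% of all tested features. The highest knockout value of MSTRG.46965 was close to its lowest wild-type value.

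The falls of these 3 features ran from 4.24-fold to 4.92-fold in the ratio of the means. MSTRG.46963 averaged 11.5 ± 3.60 (SD, n = 5) in wild-type and dropped to 2.71 ± 1.13 (SD, n = 6), a log2 difference of -1.76 (SE 0.38, limma adjusted p = 0.000546). MSTRG.46964 fell from 14.3 ± 3.11 to 2.90 ± 1.48, a log2 difference of -2.11 (SE 0.41, limma adjusted p = 0.000179). MSTRG.46965 fell from 19.1 ± 6.72 to 4.16 ± 1.99, a log2 difference of -1.97 (SE 0.35, limma adjusted p = 5.14e-05). The rate ratios from reads were 4.23, 4.92 and 4.58, and their exact 95% intervals from counting error were 2.45 to 7.64, 2.93 to 8.66 and 2.98 to 7.25, which overlap; the difference between the falls was not tested. Each of the 3 reached the required mean of 5 through its wild-type libraries alone, so the filter itself chose them for a high wild-type level and these p-values must be read with that. With no filter, over all 36097 features, the limma adjusted p-values were 0.000447 for MSTRG.46963, 5.57e-05 for MSTRG.46964 and 1.99e-05 for MSTRG.46965. The 3 adjusted p-values over all alternatives in which the features were tested ran from 9.50e-06 to 0.00388.

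Among all 21395 tested features, 12.6% were called lower by limma at an adjusted p below 0.05 and 15.6% higher. In all 6 window features every knockout library lay below every wild-type library, which held for 9.13% of tested features. Since the window was placed around its largest falls, and each feature reached the required mean through its wild-type libraries alone, no count of calls over the window is given and nothing is read from the lack of overlap. In wild-type the level per kb was 26.7 for MSTRG.46963, near the table's median of 26.9, with a rank of 18272 of 36097. It was 38.4 for MSTRG.46964 and 32.9 for MSTRG.46965, at ranks 8467 and 12307. All 3 were far below the upstream cluster.

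Outside the window the nearest listed features lay at very different distances on the 2 sides. On the side of Mcm10 the nearest was MSTRG.46959, 62543 bp before MSTRG.46963, whose wild-type level of 7.26 ± 3.11 (SD, n = 5) was not called different from 4.74 ± 2.56 in knockout (SD, n = 6) (limma adjusted p = 0.341). On the other side nothing was listed for 520876 bp, up to MSTRG.46986, which lies antisense to Camk1d, a calcium/calmodulin-dependent kinase gene. Of 31 features on chromosome 2 between 4000000 and 6000000 but outside the window, 15 were tested. Of these 15, 2 were called lower, 1 higher and 12 neither, against 28.1% called in either direction over all tested features. The median log2 difference of the 15 was -0.48, against -0.02 over all tested features.

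The 2 called lower were both antisense to Camk1d, in its introns. MSTRG.46986 (5605866 to 5606487, plus strand) held 37.0, 57.4, 25.1, 11.6 and 9.08 normalised counts in wild-type 1 to 5 and 2.28 to 9.09 in knockout, a log2 difference of -1.93 (limma adjusted p = 0.000416). MSTRG.46988 (5614698 to 5615641, plus strand) held 599, 616, 321, 142 and 110.0 in wild-type and 31.9 to 159 in knockout, a log2 difference of -2.16 (limma adjusted p = 0.0144). The groups overlapped for both. Their wild-type libraries were widely spread, with wild-type 1 and wild-type 2 the highest, as for MSTRG.46971, MSTRG.46973 and MSTRG.46974. The 1 called higher was MSTRG.46935, whose middle lies 329 bp away from where the splicing factor gene Prpf18 starts. MSTRG.46935 was at 0 in all 5 wild-type libraries and at 9.60 ± 3.99 in knockout (SD, n = 6). It thus reached the required mean of 5 through knockout alone, so its call must be read with that. The count of lower calls was 5 without wild-type 5, and MSTRG.46935 dropped below the required mean without knockout 1, 2 or 3.

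**Figure D4:**
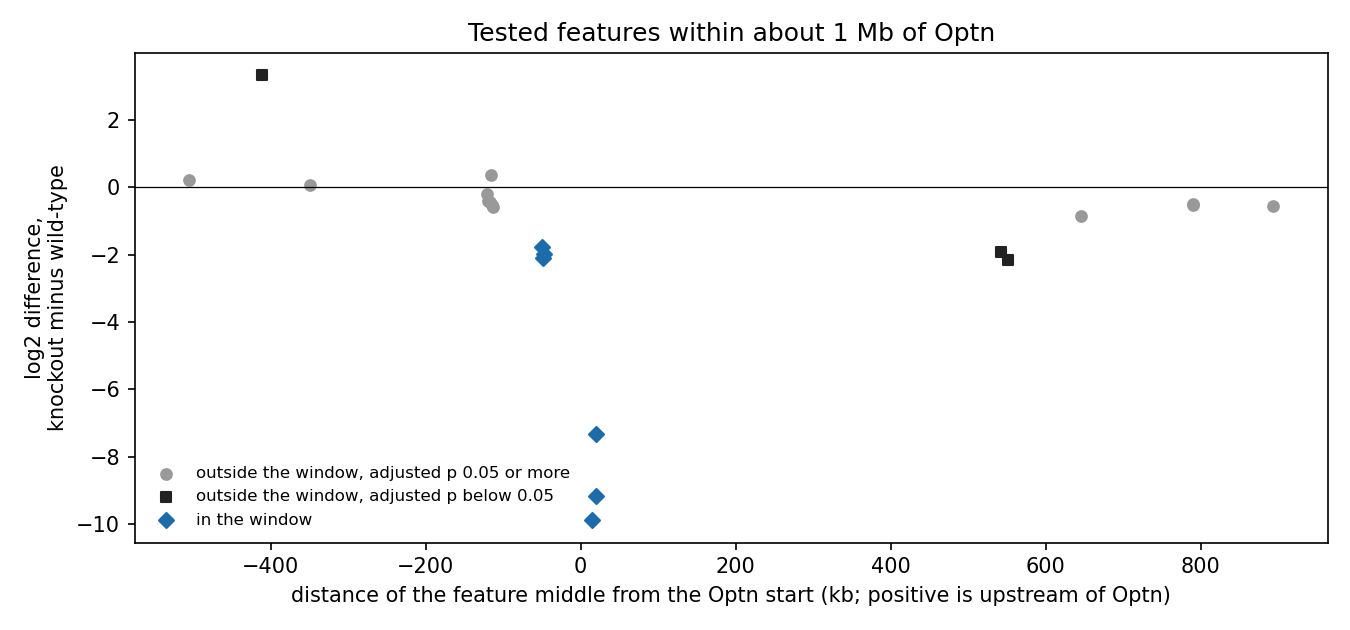
Difference in log2(normalised count + 1), knockout minus wild-type, of tested features against the distance of their middle from the Optn start. The 3 upstream features lie at -7.34 to -9.89, the 3 between Optn and Mcm10 at -1.76 to -2.11, and the 15 tested outside the window between -2.16 and 3.33.

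The authors' deposited table places all 6 features in 1 chromosomal domain, number 207, with 20 further features. Of those 20, 12 were tested, and limma called 2 lower, both at Camk1d, and 0 higher. These calls made up 16.7% of the 12, against 28.1% over all tested features. For this domain the authors' deposited table lists 4 mRNAs as lower in knockout, those of Camk1d, Mcm10, Optn and Ucma, and none as higher. Ucma encodes a secreted matrix protein of cartilage. The measurement of those mRNAs was not analysed here.

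The tested non-coding features at genes that work with optineurin showed no common direction. Of the 23 genes on a list of optineurin partners and autophagy receptors, 7 had a tested feature, and Optn was not among them. The 11 features, all antisense to their gene, had a median log2 difference of 0.15. Some shared a gene, Myo6 or Gabarapl1, so the features are not independent of one another. Of them 2 were called higher, 2 lower and 7 neither, against 28.1% called over all tested features. MSTRG.7889 (chromosome 10, 19011129 to 19012815), over an exon of Tnfaip3, the gene of a ubiquitin-editing enzyme, dropped from 381 ± 75.0 normalised counts (SD, n = 5) to 4.42 ± 3.07 (SD, n = 6). MSTRG.14998 (chromosome 11, 69992231 to 69993137), over an exon of Gabarap, an autophagosome protein gene, rose from 3.23 ± 1.69 to 49.9 ± 8.11. MSTRG.76858 (chromosome 6, 129536969 to 129538777), over an exon of the related Gabarapl1, fell from 182 ± 40.8 to 28.9 ± 11.8. The limma adjusted p-values of these 3 were 9.51e-16, 1.15e-10 and 1.11e-08. MSTRG.7889 reached the required mean of 5 through wild-type alone and MSTRG.14998 through knockout alone, so their p-values must be read with that. With no filter the limma adjusted p-values were 2.94e-24 for MSTRG.7889 and 4.53e-14 for MSTRG.14998. A further Gabarapl1 feature, MSTRG.76857, named after its values were seen, rose from 59.7 ± 25.9 to 148 ± 59.3 (limma adjusted p = 0.000408).

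Features at marker genes give the setting of the retina. Over all tested features, 12.6% were called lower and 15.6% higher. Of 40 tested features at 15 rod genes, Nrl among them, 29 were called lower and 4 higher, with a median log2 difference of -3.14. Their summed level was 3249 to 5443 normalised counts in wild-type libraries and 406 to 655 in knockout. Of 31 at 11 cone genes, 19 were called higher and 3 lower, with a median of 2.09. At Trpm3, the one pigment epithelium gene with tested features, 1 of 10 was called lower, and none of the microglia genes had a tested feature. Rod features thus moved in the direction of the Optn window, and their part in its fall was not tested.

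The features whose pattern over all 11 libraries was most like that of MSTRG.46971 were those with a similar loss, a choice that the difference between the groups dominates. By Pearson's r of log2(normalised count + 1), among the 21389 other tested features, they were MSTRG.40686 (r = 0.998) on chromosome 17 in AC132455.2, MSTRG.4708 (0.997) antisense to Platr1 on chromosome 1, MSTRG.7906 (0.997) in Gm33056 on chromosome 10, MSTRG.80767 (0.996) near Tjp1 and MSTRG.74898 (0.996) antisense to Vax2os. Within wild-type alone the closest features differed from these. Over the 5 wild-type libraries, too few for a correlation to be more than a way of choosing, the closest of 7975 features averaging at least 20 in wild-type were MSTRG.70239, MSTRG.11191, MSTRG.24050, MSTRG.67319 and MSTRG.71099. Of these 5, 2 were called lower in knockout, against 12.6% of all tested features, and no excess is read from so few. They were MSTRG.24050 in Gm2233 (948 ± 224 and 56.0 ± 15.5 normalised counts) and MSTRG.71099 antisense to Baz1b (21.2 ± 11.9 and 5.97 ± 3.66). The other 3 were not called, such as MSTRG.70239 at 69.3 ± 29.0 and 74.1 ± 16.9 (limma adjusted p = 0.711).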

How the data were processed

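Libraries were retina RNA at postnatal day 21, with 50-bp stranded single-end reads per the labels' protocols. The deposited signal columns are DESeq2-normalised counts of the authors on mm10, as the deposited table's own name states. TopHat2 2.0.10 and Cufflinks 2.2.1 are named, with Cuffdiff and without roles, per the submitters' processing notes. The deposited log2 fold change, its standard error, a score with the opposite sign, the p-value and the adjusted p-value are the authors' comparison, per the file headers; no p or score of theirs was used. Table starts were taken as counted from 0, since 174 then fall on exon starts of GENCODE M21 and 2 otherwise, and are printed counting from 1. Of 36180 lines, 36097 features are unique.

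Every value was a whole multiple of its library's smallest (100% within 0.001), so reads were recovered. Intervals and floors of 3 reads cover counting error only. The test was limma 3.58.1 (R 4.3.3) fitted two-sided to log2(normalised count + 1) with group as the only term, mean of at least 5, Benjamini-Hochberg over all tested features, call below 0.05. Checked on simulated data for this comparison (21395 features), it found 4 of 60 features with a 1.5-fold change, 24 of 74 with a 2-fold change and 53 of 66 with a 4-fold change. Alternatives included edgeR 4.0.16 and DESeq2 1.42.0 on the reads of 9 libraries, leaving out wild-type 5 and knockout 2, whose reads count for nearly 1 normalised count each. Features named are all of the window, the called flanking features nearest to it, the 3 called list features of largest change and those most like MSTRG.46971. The members and lists were chosen with earlier results of these data known. Sequences are from RefSeq (GRCm38).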

Additional observations from a re-analysis of the deposited data

Results flagged for a closer look

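Single libraries stood apart from the rest of their group, by the gap to the nearest library relative to the range of the group, in 6 of the 26 groups examined. A chance rate of about 1 in 20 applies to continuous values and not to groups of 0 or 1 reads, so no excess is read from these 6. MSTRG.46964 was at 0 in knockout 4 (next 3.03), with 0 reads against 3 or 4 in each other knockout library. Of the other groups, 3 rest on 1 read more or less: MSTRG.46973 at 0 in knockout 4 (next 0.758), MSTRG.46974 at 0.960 in knockout 4 (the others 0) and MSTRG.28375 at Nrl at 0.758 in knockout 5 (the others 0). Knockout 1 was the highest knockout library for MSTRG.46988 at Camk1d, with 159 normalised counts (next 74.7), and for MSTRG.7889 at Tnfaip3, with 10.4 (next 4.80).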

How the results depend on the processing

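The difference of MSTRG.46971 moved from -9.89 to -8.57 with a pseudocount of 5, and that of MSTRG.46973 from -9.16 to -9.69 and -7.42 with pseudocounts of 0.5 and 5, which follows from their few knockout reads. Without single libraries they ran from -10.05 to -9.60 and from -9.27 to -9.00, and the ratio of MSTRG.46973 to MSTRG.46971 per length from 11.9 to 12.8. With a mean of at least 20, of the 4 other window features only MSTRG.46974 was tested. Among all features 1722 were then higher and 1628 lower of 8266, because fewer were tested. Without single libraries the log2 difference ran from -1.91 to -1.60 for MSTRG.46963 and from -2.24 to -1.75 for MSTRG.46964. It ran from -2.19 to -1.82 for MSTRG.46965 and from -7.50 to -7.24 for MSTRG.46974. Over all features 3084 to 3537 were then higher and 2325 to 2732 lower. In the flanks the higher count was 2 with no filter and 0 with a mean of at least 20 or with limma on the 9 libraries of the count tests, an alternative chosen after seeing the data, and 0 to 1 without single libraries. The lower count there was 1 with a mean of at least 20, 5 with limma on the 9 libraries, 4 with edgeR, 4 with DESeq2 and 2 to 5 without single libraries; the cause was not tested. The replicate number as a block, without knockout 6, gave 5 lower in the flanks. Same-numbered libraries share only a number: their deviations correlated at 0.0013 to 0.294, and not every library matched its own number best. Under the alternatives in which they were computed, no difference changed direction among the 6 window features, the 3 called flanking features, MSTRG.7889, MSTRG.14998 and MSTRG.76858; the medians, the marker lists and the other features named were not recomputed. Low reads limit the features between Optn and Mcm10, with 18 to 28 knockout reads each.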
